A study of Mus musculus with 2 samples.

Results

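The respiratory chain genes described here are the 97 symbols of 32285 listed genes that name subunits of complexes I to V. They comprise 84 nuclear members (Ndufa, Ndufb, Ndufc, Ndufs and Ndufv genes, Sdha to Sdhd, Uqcr genes, Cox4 to Cox8 genes and Atp5 genes) and 13 members encoded in the mitochondrial genome, and entries marked as pseudogenes were left out. Members were taken by symbol alone and no measured value entered that rule, though the set was chosen with earlier results of these data known. Ndufab1, an acyl carrier subunit of complex I, is not matched by these symbols and was counted with the assembly factors. By complex as read from the symbol (*Ndufa4* with complex I), the nuclear members number 37 in complex I, 4 in complex II, 8 in complex III, 18 in complex IV and 17 in complex V.

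The chain passes electrons from NADH and succinate through complexes I to IV to oxygen and uses the proton gradient so formed to drive ATP synthesis by complex V. Its subunits come from both genomes, with complex II wholly nuclear, and the mitochondrial mRNAs are cut from long polycistronic transcripts made inside the organelle. Mature neutrophils are known for relying largely on glycolysis and for holding few mitochondria, whereas dividing progenitors hold many.

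Single bone marrow cells were sequenced from their 3′ ends in droplets, with 1 library labelled control (Ctrl) and 1 labelled Map4k4-cko (cKO), both from mice aged 13 to 14 weeks on a C57BL/6 background. In each, 2 parts of c-Kit+ cells were mixed with 3 parts of red-cell-lysed bone marrow. The cKO mice were Mx1-Cre *Map4k4* f/f and the Ctrl littermates are written as Mx1-Cre *Map4k4* -/-, with Cre driven by an interferon-inducible promoter and switched on by poly I:C, and neither the number of mice pooled nor a second library is given. Mx1-Cre is active in blood cells of many kinds and in other tissues, so the deletion is not confined to neutrophil precursors.

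With 1 library per genotype no difference between them has a replicate check, no p-value is given, and all 95% intervals cover counting error only. The Ctrl library held 10220 barcodes and 71527701 UMIs (unique molecular identifiers, which tag single captured RNA molecules), and the cKO library held 6872 barcodes and 64393950 UMIs, with 3010 barcode sequences present in both. *Map4k4*, the targeted gene, stood at 72.6 CPM (UMIs per 1000000 UMIs of the cells summed) in the library labelled Ctrl and 64.3 CPM in the library labelled cKO, and counts per gene do not show which exons were read. Ctrl and cKO therefore stand for the libraries as labelled. After filtering, 9965 Ctrl and 6718 cKO cells were kept, and 8004 and 4956 of them fell in a marker gate, that is, a cell class set by the expression of its marker genes. Haemoglobin genes, which neutrophils should lack, made up 0.0350% of UMIs in Ctrl and 0.00400% in cKO imNeu-like cells, and 0.0703% and 0.00553% in mNeu-like cells. They are a measure of free haemoglobin RNA, which differed between the libraries. The libraries held 100 and 12 erythroblast-like cells. The granule genes *Ngp*, *Camp* and *Ltf*, which B cells should lack, differed less, at 0.491% and 0.269% of UMIs in B-like cells (328 and 18 cells). *Malat1*, a nuclear noncoding RNA, was lower in cKO in all 14 gates that held at least 10 cells in both libraries, for example 0.846% against 0.355% of UMIs in HSPC-like cells.

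The gates used between libraries were HSPC-like (238 Ctrl and 80 cKO cells), ProNeu-like (1238 and 837), imNeu-like (3459 and 2659), mNeu-like (1050 and 888), ProMon-like (654 and 283) and MEP/erythroid progenitor-like cells (325 and 72). HSPC stands for haematopoietic stem and progenitor cells and MEP for megakaryocyte and erythroid progenitors. ProNeu, imNeu and mNeu stand for neutrophil progenitors, immature and mature neutrophils. The imNeu-like gate was set by secondary granule genes and also takes in neutrophil precursors (PreNeu), which the study named as a separate type. ProMon-like cells were gated by genes of the monocyte lineage and need not be progenitors. Between 4 and 7 of the 10 leading genes of each of these gates were its own markers, such as *Mpo* and *Elane* in ProNeu-like cells and *Ltf*, *Ngp* and *Camp* in imNeu-like cells. The median number of UMIs per cell was higher in cKO in each of them, and the gap was widest, as a ratio, in mNeu-like cells (2155.5 in Ctrl and 5791.5 in cKO).

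The sequences below concern the mitochondrial members whose counts differed most between the libraries. *mt-Atp8* and *mt-Atp6* share 43 bases, chrM:7927-7969 on the forward strand of GRCm38, which are 21.1% of the 204 bases of *mt-Atp8*. *mt-Nd4l* and *mt-Nd4* share 7 bases, chrM:10167-10173, of the 297 bases of *mt-Nd4l*. The shared bases are in capitals, with 12 bases of the first gene before them and 12 of the second gene after them, as annotated in GENCODE vM21. CellRanger counts a read only where it fits 1 gene, and the reads that fit both members of a pair are not in these counts.
*mt-Atp8* and *mt-Atp6*: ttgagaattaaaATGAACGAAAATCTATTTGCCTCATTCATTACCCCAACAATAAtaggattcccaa
*mt-Nd4l* and *mt-Nd4*: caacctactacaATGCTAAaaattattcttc

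The nuclear members were searched for 4 short motifs of factors known to act on such genes, on both strands of the RefSeq promoter windows of GRCm38.p6 (250 bases before to 50 after the start). A window was matched by symbol for 67 of the 84 nuclear members. The NRF1 core CGCATGCG was in 8 of these 67 windows and in 1.91% of all 27025 windows. The YY1 core AAGATGGC was likewise in 8 member windows, against 2.88% of all, and the ERR motif AAGGTCA in 8, against 4.66% of all. The ETS core CCGGAAGT, the type bound by GABP, was in 5 member windows and in 4.0% of all. The windows shown belong to the members at both ends of the change from HSPC-like to mNeu-like cells given further on, *Atp5l* and *Ndufa8* among the highest ratios and *Atp5g2* and *Ndufa5* among the lowest. Capitals mark the motif matches.
*Atp5l*, chr9:44920693-44920992, reverse strand: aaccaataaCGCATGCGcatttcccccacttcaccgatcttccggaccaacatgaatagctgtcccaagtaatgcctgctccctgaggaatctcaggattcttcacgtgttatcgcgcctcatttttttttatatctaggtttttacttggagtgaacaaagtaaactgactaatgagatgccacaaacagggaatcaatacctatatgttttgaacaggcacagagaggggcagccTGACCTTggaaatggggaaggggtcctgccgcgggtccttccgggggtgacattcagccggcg
*Ndufa8*, chr2:36049289-36049588, reverse strand: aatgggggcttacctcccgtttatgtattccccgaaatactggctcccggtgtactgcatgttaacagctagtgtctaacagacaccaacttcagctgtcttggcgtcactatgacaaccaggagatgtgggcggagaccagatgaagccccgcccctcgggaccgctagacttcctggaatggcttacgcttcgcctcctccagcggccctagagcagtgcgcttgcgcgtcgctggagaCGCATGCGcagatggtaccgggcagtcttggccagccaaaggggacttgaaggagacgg
*Atp5g2*, chr15:102670998-102671297, reverse strand: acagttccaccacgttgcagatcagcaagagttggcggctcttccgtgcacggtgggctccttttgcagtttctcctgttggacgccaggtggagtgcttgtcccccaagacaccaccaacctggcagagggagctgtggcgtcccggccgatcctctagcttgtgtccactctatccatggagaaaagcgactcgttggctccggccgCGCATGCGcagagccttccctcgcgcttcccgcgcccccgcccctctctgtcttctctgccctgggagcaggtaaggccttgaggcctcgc
*Ndufa5*, chr6:24527477-24527776, reverse strand: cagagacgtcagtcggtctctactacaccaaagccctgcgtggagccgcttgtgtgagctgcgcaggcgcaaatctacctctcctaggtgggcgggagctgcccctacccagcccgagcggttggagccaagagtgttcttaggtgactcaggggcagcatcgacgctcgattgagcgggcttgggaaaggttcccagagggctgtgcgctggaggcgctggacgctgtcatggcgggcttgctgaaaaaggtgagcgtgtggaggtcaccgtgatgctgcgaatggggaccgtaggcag
The NRF1 core is in the windows of *Atp5l*, *Ndufa8* and *Atp5g2*, so it lies in members from both ends, and that of *Ndufa5* holds none of the 4. A match describes letters in a window and does not show a bound site.

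Over all kept cells, 78 of the 84 nuclear members had more than 200 UMIs. *Cox7b2*, *Cox8b* and *Cox8c*, isoforms of complex IV subunits, were at 0 UMIs in both libraries. *Ndufa4l2*, an *Ndufa4* paralog, was counted 3 times in Ctrl and 1 time in cKO. The totals were 54 Ctrl and 62 cKO UMIs for *Cox4i2* and 65 and 60 for *Cox7a1*. The 84 nuclear members made up 1.92% of UMIs in Ctrl and 1.81% in cKO, and the 13 mitochondrial members 1.93% and 1.31%. In a 3′ library 1 captured molecule gives 1 UMI whatever its length, so sums over members are numbers of captured molecules, and capture may differ between genes.

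Across gates, nuclear members were highest in MEP/erythroid progenitor-like and ProNeu-like cells and lowest in mNeu-like and plasma cell-like cells in both libraries. The summed share was 2.81% of UMIs in Ctrl and 3.39% in cKO for MEP/erythroid progenitor-like cells, 2.54% and 2.91% for ProNeu-like, 2.16% and 2.55% for ProMon-like, 1.67% and 1.93% for HSPC-like, 1.27% and 1.17% for imNeu-like and 0.874% and 0.737% for mNeu-like cells. The order of the 14 gates was nearly the same in both libraries (Spearman rho 0.952 over 14 gates, which share no cells, as a description).

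Mitochondrial members followed another order. They were highest in macrophage-like cells, at 3.78% of UMIs in Ctrl (44 cells) and 2.90% in cKO (14 cells), followed by pDC-like cells (plasmacytoid dendritic cells) at 3.05% and 2.75%, where the intervals of cKO overlap between these gates. They were 2.46% in Ctrl and 2.22% in cKO for HSPC-like cells, 2.45% and 2.10% for ProNeu-like, 1.19% and 0.848% for imNeu-like and 0.520% and 0.361% for mNeu-like cells, the lowest gate in both libraries. Nuclear and mitochondrial shares had a rank correlation over the 14 gates of 0.257 in Ctrl and 0.310 in cKO.

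The number of nuclear UMIs per mitochondrial UMI needs no scaling between libraries, since both counts come from the same cells. In Ctrl it was lowest in macrophage-like cells (0.402, against 0.636 in cKO) and B-like cells (0.468, against 0.703 from 18 cKO cells). In cKO the plasma cell-like, macrophage-like and pDC-like gates were lowest and close together, at 0.633, 0.636 and 0.641. It was highest in mNeu-like cells (1.68 and 2.04). HSPC-like cells stood at 0.679 and 0.869, ProNeu-like cells at 1.03 and 1.39 and MEP/erythroid progenitor-like cells at 1.17 and 1.64. The ratio was higher in cKO in 14 of 14 gates, and the 2 intervals did not overlap in 13 of them, the exception being plasma cell-like cells (0.626 and 0.633).

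**Figure D1:**
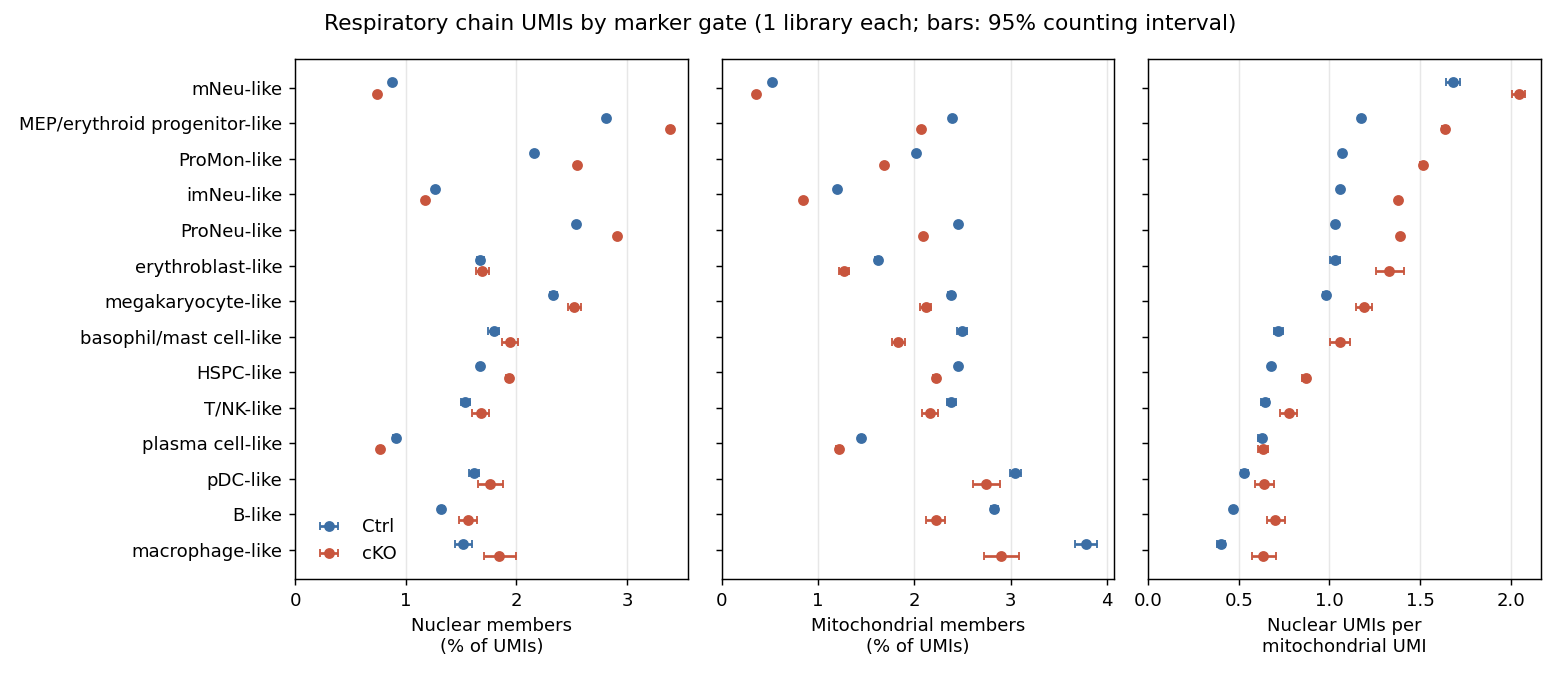
Share of UMIs held by the nuclear members (left, %) and the mitochondrial members (middle, %) and nuclear UMIs per mitochondrial UMI (right) in 14 marker gates, with 1 point for each library and bars for the 95% counting interval. The mitochondrial share is lower in cKO in all 14 gates before any scaling (a median scaling turns ProNeu-like cells to 0.06 on the log2 scale), and mNeu-like cells have the highest ratio, 1.68 in Ctrl and 2.04 in cKO.

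Along the neutrophil gates the nuclear members rose first and then fell, while the mitochondrial members did not rise from HSPC-like to ProNeu-like cells. From HSPC-like to ProNeu-like cells the nuclear sum changed by a log2 ratio of 0.61 in Ctrl and 0.59 in cKO, whereas the mitochondrial sum changed by 0.00 in Ctrl (95% interval -0.01 to 0.01) and -0.08 in cKO. From ProNeu-like to imNeu-like cells both sums fell alike, by 1.002 and 1.04 on the log2 scale in Ctrl and by 1.32 and 1.30 in cKO. From imNeu-like to mNeu-like cells the nuclear sum fell by 0.53 in Ctrl and 0.67 in cKO and the mitochondrial sum by 1.20 and 1.23. From HSPC-like to mNeu-like cells the nuclear sum was 1.91-fold lower in Ctrl and 2.62-fold lower in cKO, and the mitochondrial sum 4.72-fold and 6.16-fold lower. All these values are shares of a library in which the most abundant mRNAs change between gates (*Ngp*, *Camp* and *Ltf*, which encode granule proteins, were 0.254% of Ctrl UMIs in HSPC-like, 9.64% in imNeu-like but 0.521% in mNeu-like cells), and leaving the 50 most abundant genes out of the total brought the nuclear log2 ratio from -0.93 to -0.57 in Ctrl and from -1.39 to -0.88 in cKO.

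The fall of the nuclear members was read against all genes tested. In Ctrl, 42 of the 78 nuclear members with at least 10 UMIs were at least 2-fold lower in mNeu-like than in HSPC-like cells, while 57.7% of all genes tested were, and 0 were at least 2-fold higher, against 14.5% of all genes. In cKO, 57 of 77 were lower, against 59.8% of all genes, and 0 higher, against 14.7%. All 13 mitochondrial members were at least 2-fold lower in both libraries. The median log2 ratio was -1.04 for nuclear members and -1.35 for all genes in Ctrl, and -1.59 and -1.58 in cKO, beside -2.23 and -3.08 for mitochondrial members. The share of lower nuclear members was thus near that of all genes in Ctrl and above it in cKO. The reading depends on which genes are set beside them, since genes with at least 50 UMIs in both gates had a median of -0.36 in Ctrl and -1.29 in cKO.

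The complexes moved to unlike extents. For complex I (NADH dehydrogenase), 20 of the 36 nuclear members tested were at least 2-fold lower in mNeu-like cells in Ctrl and 27 of 36 in cKO. For complex II (succinate dehydrogenase) it was 2 of 4 in both libraries, and its sum was 213 CPM in Ctrl and 215 CPM in cKO mNeu-like cells after 395 and 381 CPM in HSPC-like cells. For complex III (cytochrome bc1), 5 of 8 in Ctrl and 7 of 8 in cKO were lower, for complex IV (cytochrome c oxidase) 4 of 13 and 7 of 12, and for complex V (ATP synthase) 11 of 17 and 14 of 17. Complex IV had the smallest share lower in Ctrl (30.8%) and complex II, with only 4 genes, in cKO. In Ctrl the other complexes lay between 50% and 64.7%, near the 57.7% of all genes. In cKO complexes I, III and V were at 75%, 87.5% and 82.4%, above the 59.8% of all genes. Complexes II and IV were at 50% and 58.3% there.

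**Figure D2:**
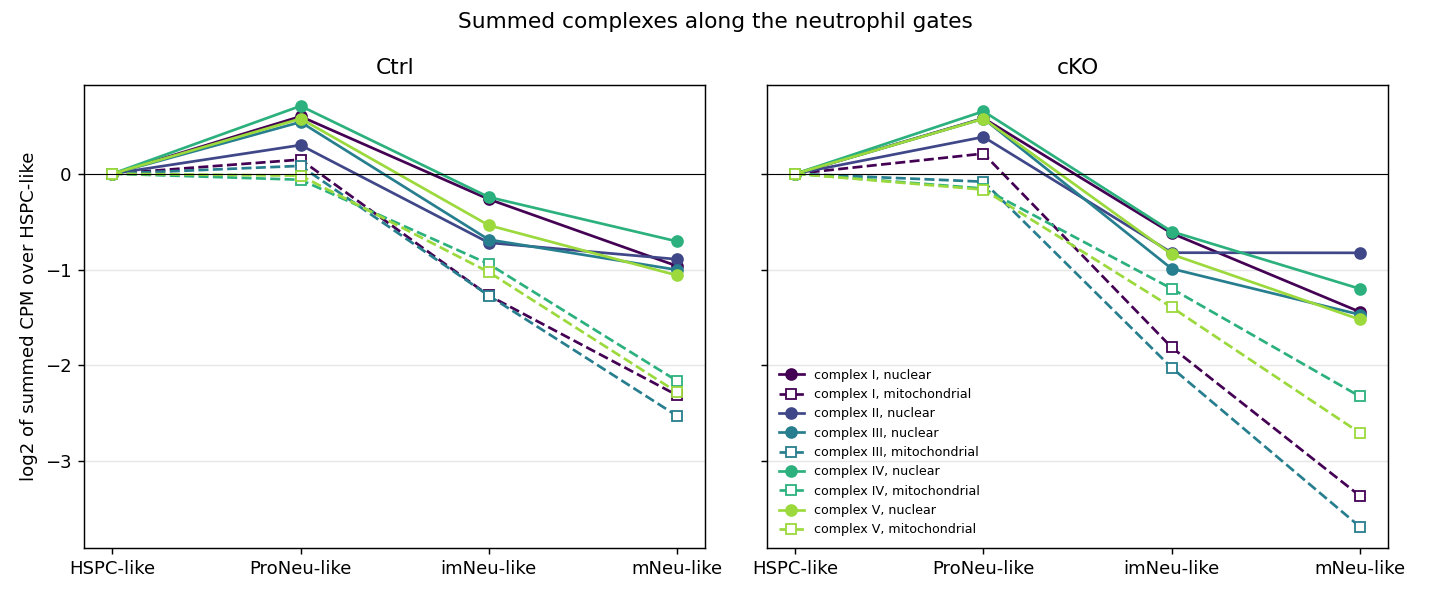
Summed CPM of each complex along the 4 gates from HSPC-like to mNeu-like cells, as log2 ratio over HSPC-like cells, for Ctrl (left) and cKO (right). Filled circles are nuclear and open squares mitochondrial members, and the mitochondrial sums of complexes I, III, IV and V end lower than every nuclear sum in both libraries.

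Among nuclear members the spread was wide. *Atp5g2*, one of 3 genes for the c subunit of the ATP synthase rotor, had 511.6 CPM in HSPC-like and 70.3 CPM in mNeu-like cells in Ctrl, and 614.6 and 35.2 CPM in cKO, log2 ratios of -2.86 and -4.13. *Ndufa5*, an accessory subunit of complex I, went from 102.8 to 15.5 CPM in Ctrl and from 106.5 to 6.02 CPM in cKO, and *Cox6b2*, the isoform of the COX6B subunit known from testis, from 58.1 to 11.1 and from 79.9 to 1.69 CPM. These were the 3 members with the lowest ratios over both libraries among those with at least 50 UMIs in 1 of both gates in each library. The last mNeu-like values rest on 32 UMIs of *Ndufa5* and 9 UMIs of *Cox6b2*. *Cox6a2*, below that minimum, stood at -2.19 in Ctrl and -4.88 in cKO, from 5 and 1 UMIs in mNeu-like cells.

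The 3 members with the highest ratios over both libraries were *Ndufa8*, another complex I subunit (98.5 to 97.2 CPM in Ctrl, 122.0 to 124.1 CPM in cKO), *Atp5l*, the g subunit of ATP synthase (413.1 to 414.0 and 424.9 to 378.2 CPM), and *Ndufb7*, a complex I subunit (193.2 to 198.5 and 204.1 to 165.4 CPM). Their log2 ratios lay between -0.30 and 0.04 in both libraries. Subunits of 1 complex thus differed from one another by more than 2 log2 units in the same cells, as with *Ndufa8* (-0.02 in Ctrl and 0.02 in cKO) and *Ndufa5* (-2.73 and -4.15).

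The most abundant members of each complex fell by unlike amounts too. *Ndufa4*, counted with complex I by its symbol but now placed in complex IV, changed by -2.45 in Ctrl and -3.15 in cKO from HSPC-like to mNeu-like cells. *Ndufb11* of complex I changed by -0.53 and -0.66. In complex II, the small membrane anchor *Sdhd* changed by -0.25 and -0.23, and *Sdha*, the flavoprotein with the succinate site, by -1.09 and -1.43. In complex III, *Uqcrh* changed by -0.64 and -1.03, *Uqcrq* by -0.73 and -0.96 and *Uqcrb* by -2.07 and -2.61. In complex IV, *Cox4i1* changed by -0.39 and -0.95, *Cox6c* by -0.83 and -1.35 and *Cox7c* by -1.34 and -1.60. In complex V, *Atp5e* changed by -0.55 and -1.12 and *Atp5h* by -0.68 and -1.01.

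Several subunits are made from more than 1 gene, and these isoforms differed by cell type. *Cox6a2*, the heart and muscle isoform of COX6A, had 1193 CPM in Ctrl pDC-like cells (398 UMIs in 88 cells) and 1582 CPM in cKO (87 UMIs in 10 cells). Its next highest level among the 14 gates was 9.04 CPM in Ctrl (HSPC-like) and 5.55 CPM in cKO (HSPC-like). A *Cox6a2* UMI was present in 84.1% of Ctrl pDC-like cells (95% Clopper-Pearson interval 74.8 to 91.0) and 70.0% of cKO ones (34.8 to 93.3), at median depths of 3330 and 5501 UMIs. In imNeu-like cells, which should lack it, the share was 0.607% in Ctrl and 0.0752% in cKO at medians of 5051 and 9902 UMIs, and *Siglech*, a pDC marker, was seen in 1.16% and 0.188% of the same cells. The widely used isoform *Cox6a1* stood at 242.8 CPM in Ctrl and 236.4 CPM in cKO pDC-like cells, so *Cox6a2* had more UMIs than *Cox6a1* in pDC-like cells of both libraries. *Cox6a2* was not among the markers that set this gate.

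*Cox6b2* was highest in MEP/erythroid progenitor-like cells, at 253.8 CPM in Ctrl (1687 UMIs) and 229.4 CPM in cKO (613 UMIs), followed by erythroblast-like cells at 118.3 and 156.1 CPM (73 and 26 UMIs). ProNeu-like cells had 56.1 and 55.1 CPM. A *Cox6b2* UMI was seen in 86.8% of Ctrl and 95.8% of cKO MEP/erythroid progenitor-like cells (median depths of 17193 and 35630.5 UMIs) and in 4.57% of Ctrl B-like cells (2123 UMIs). The general isoform *Cox6b1* was at 579.1 and 635.9 CPM in MEP/erythroid progenitor-like cells.

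The 3 genes for the same c subunit peptide of ATP synthase, *Atp5g1*, *Atp5g2* and *Atp5g3*, also took different courses. *Atp5g1* was highest in MEP/erythroid progenitor-like cells (630.1 CPM in Ctrl and 936.5 CPM in cKO) and second in ProNeu-like cells (454.4 and 642.1 CPM), with 39.7 and 19.7 CPM in mNeu-like cells. *Atp5g2* was between 511.6 and 748.6 CPM in HSPC-like and ProNeu-like cells of both libraries. In mNeu-like cells *Atp5g3* was the highest of the 3, at 102.8 CPM in Ctrl and 80.1 CPM in cKO. For *Cox4i2*, the isoform of COX4 known from lung, 29 of its 54 Ctrl UMIs and 39 of its 62 cKO UMIs were in ProNeu-like cells, at 1.46 and 2.33 CPM. *Cox7a1*, the heart and muscle isoform of COX7A, had 1.21 and 1.73 CPM there, whereas *Cox7a2* was at 173.1 and 144.4 CPM even in mNeu-like cells.

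**Figure D3:**
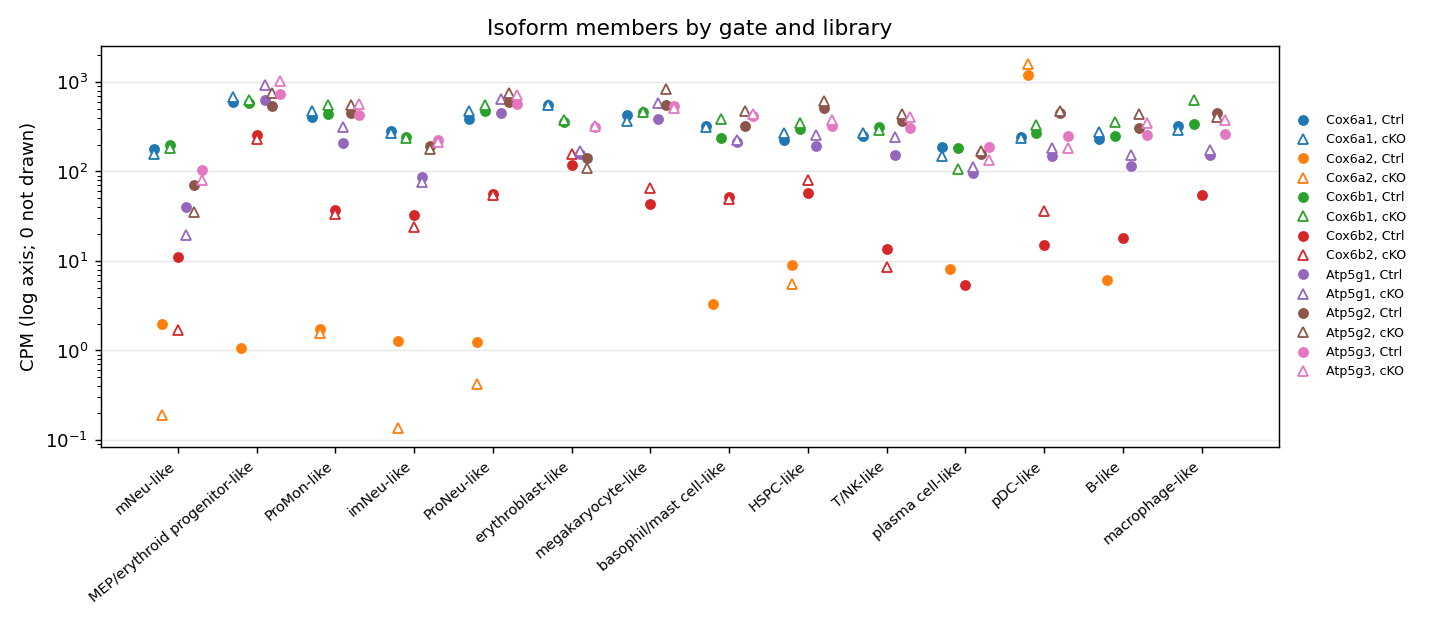
CPM on a log axis of the COX6A, COX6B and ATP synthase c subunit isoforms in 14 gates, with filled circles for Ctrl and open triangles for cKO, and values of 0 not drawn. *Cox6a2* stands out in pDC-like cells (1193 CPM in Ctrl and 1582 CPM in cKO) and *Cox6b2* in MEP/erythroid progenitor-like cells.

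Between the libraries, the mitochondrial sum was lower in cKO by CPM in all 6 gates compared (in 5 of 6 under the median scaling described next, which turned ProNeu-like cells to 0.06), while the nuclear sum was higher in 4 and lower in 2. The nuclear log2 ratio of cKO over Ctrl was 0.21 in HSPC-like (95% counting interval 0.19 to 0.24), 0.20 in ProNeu-like, 0.24 in ProMon-like and 0.27 in MEP/erythroid progenitor-like cells. It was negative in imNeu-like (-0.11) and mNeu-like cells (-0.25). The last 2 directions depend on the scaling. When the libraries were scaled to the median ratio of genes with at least 50 UMIs in both, they became 0.29 and 0.14. That median of all genes was -0.03 in HSPC-like, -0.28 in ProNeu-like, -0.41 in imNeu-like, -0.38 in mNeu-like, -0.16 in ProMon-like and -0.07 in MEP/erythroid progenitor-like cells. So relative to that median the nuclear sum was higher in cKO in 6 of 6 gates. Of the single nuclear members in mNeu-like cells, 43 were higher and 34 lower under this scaling.

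The mitochondrial log2 ratio was -0.14 in HSPC-like, -0.23 in ProNeu-like, -0.49 in imNeu-like, -0.53 in mNeu-like, -0.26 in ProMon-like and -0.21 in MEP/erythroid progenitor-like cells. Under the median scaling it was 0.06 in ProNeu-like cells and between -0.14 and -0.09 in the other 5 gates. The nuclear to mitochondrial ratio, which no scaling changes, was 1.28-fold higher in cKO in HSPC-like cells, 1.34-fold in ProNeu-like, 1.30-fold in imNeu-like, 1.21-fold in mNeu-like, 1.42-fold in ProMon-like and 1.40-fold in MEP/erythroid progenitor-like cells.

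The counts also varied with depth. Within a gate the mitochondrial share changed with the UMIs per cell, in no common direction. In Ctrl ProNeu-like cells it was 6.34% at 1000 to 2000 UMIs and 2.24% from 16000 UMIs. In cKO ProNeu-like cells it was 2.07% at 1000 to 2000, 5.89% at 4000 to 8000 and 1.92% from 16000 UMIs. Ctrl imNeu-like cells went from 0.973% at 2000 to 4000 UMIs to 1.42% from 16000 UMIs. Of 18 depth bands with at least 20 cells in both libraries, the mitochondrial share was lower in cKO in 13, and the nuclear share was higher in 11. In HSPC-like cells of 4000 to 8000 UMIs the mitochondrial share was 2.57% in Ctrl (79 cells) and 2.71% in cKO (22 cells). The nuclear to mitochondrial ratio was higher in cKO in 14 of the 18 bands. The exceptions were ProNeu-like cells of 4000 to 8000 UMIs (0.611 in Ctrl and 0.397 in cKO, 29 cKO cells) and of 8000 to 16000 UMIs (0.895 and 0.775), imNeu-like cells of 2000 to 4000 UMIs (1.05 and 0.876) and mNeu-like cells of 1000 to 2000 UMIs (1.86 and 1.12, 27 cKO cells). In the deepest shared bands of the following gates it was 1.16 and 1.55 for ProNeu-like, 1.06 and 1.42 for imNeu-like and 1.19 and 1.79 for ProMon-like cells, all from 16000 UMIs, and 1.19 and 1.97 for mNeu-like cells of 4000 to 8000 UMIs. The part of depth and of free RNA in the difference was not tested.

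The imNeu-like gate holds dividing and resting cells, so it was split by the UMIs of 10 cell cycle genes, a choice made after seeing the data. Cells with at least 5 such UMIs per 10000 had a nuclear share of 1.39% in Ctrl (1779 cells) and 1.42% in cKO (1232 cells), and those below it 1.02% (1680 cells) and 0.897% (1427 cells). The nuclear direction thus differed between both sides, and 508 Ctrl and 140 cKO cells lay within 2 of the limit. The mitochondrial share was 1.39% and 1.11% in the cycling cells and 0.826% and 0.559% in the others, lower in cKO on both sides. Across single imNeu-like cells the nuclear and mitochondrial shares had a rank correlation of 0.433 in Ctrl (3459 cells) and 0.587 in cKO (2659 cells), given as a description since the shares have a common total. In the other gates compared this correlation lay between -0.35 (HSPC-like cells of cKO) and 0.17 (MEP/erythroid progenitor-like cells of cKO).

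By CPM, few nuclear members passed 1.5-fold in the progenitor and monocyte gates. In HSPC-like cells 4 of the 78 tested were at least 1.5-fold higher in cKO, against 9.42% of all genes, and 1 lower, against 17.2%. In ProNeu-like cells it was 1 higher, against 2.91%, and 1 lower, against 25.2%, of 80 tested. In ProMon-like cells it was 3 higher, against 5.29%, and 0 lower, against 24.6%, of 80, and in MEP/erythroid progenitor-like cells 3 higher, against 6.76%, and 0 lower, against 22.2%, of 77. In imNeu-like cells it was 0 higher, against 2.63%, and 2 lower, against 41.2%, of 79. In mNeu-like cells it was 1 higher, against 4.23%, and 21 lower, against 45%, of 77. In mNeu-like cells the lower members were 13 of 36 in complex I, 1 of 4 in complex II (*Sdha*), 3 of 8 in complex III, 1 of 12 in complex IV (*Cox6b2*) and 3 of 17 in complex V. By CPM the share of nuclear members past the fold was smaller than that of all genes, for higher and lower, in each gate. Many genes tested had few UMIs, and counting error widens their ratios. In HSPC-like cells 10978 genes were tested and 2889 had at least 50 UMIs in both libraries. The shares were not matched for abundance. With the median scaling the share of higher members was above that of all genes in some gates. These were ProNeu-like (18 of 80, against 8.36% of all genes), ProMon-like (13 of 80, 9.47%) and MEP/erythroid progenitor-like cells (10 of 77, 8.57%). It stayed below in HSPC-like (8 of 78, 10.53%), imNeu-like (3 of 79, 7.94%) and mNeu-like cells (4 of 77, 9.81%). The scaled lower counts were 1, 0, 0, 1, 1 and 6 in the same order, beside 10.8%, 16.8%, 19.1%, 16.1%, 18.6% and 26.0% of all genes.

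The pattern over gates was shared by many nuclear members. Of the 77 measured in all 6 gates, 38 were higher in cKO in the 4 progenitor and monocyte gates and lower in both imNeu-like and mNeu-like cells by CPM, 7 were higher in all 6 and 1, *Ndufs1*, was lower in all 6. Of 8529 genes measured in all 6 gates, 6.37% had the first pattern, 2.63% were higher in all and 35.2% lower in all. The pattern depends on the scaling, since under the median scaling 2 of the 77 members had it (3.32% of all genes). Under that scaling 40 were higher in all 6 gates (10.1% of all genes) and 0 were lower in all (18.3% of all genes). The 7 by CPM were *Ndufa8*, *Sdhb*, *Ndufb9*, *Atp5j*, *Ndufa7*, *Cox7a2l* and *Ndufb11*. Of these, *Atp5j* and *Ndufa7* are named after their values were seen.

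**Figure D4:**
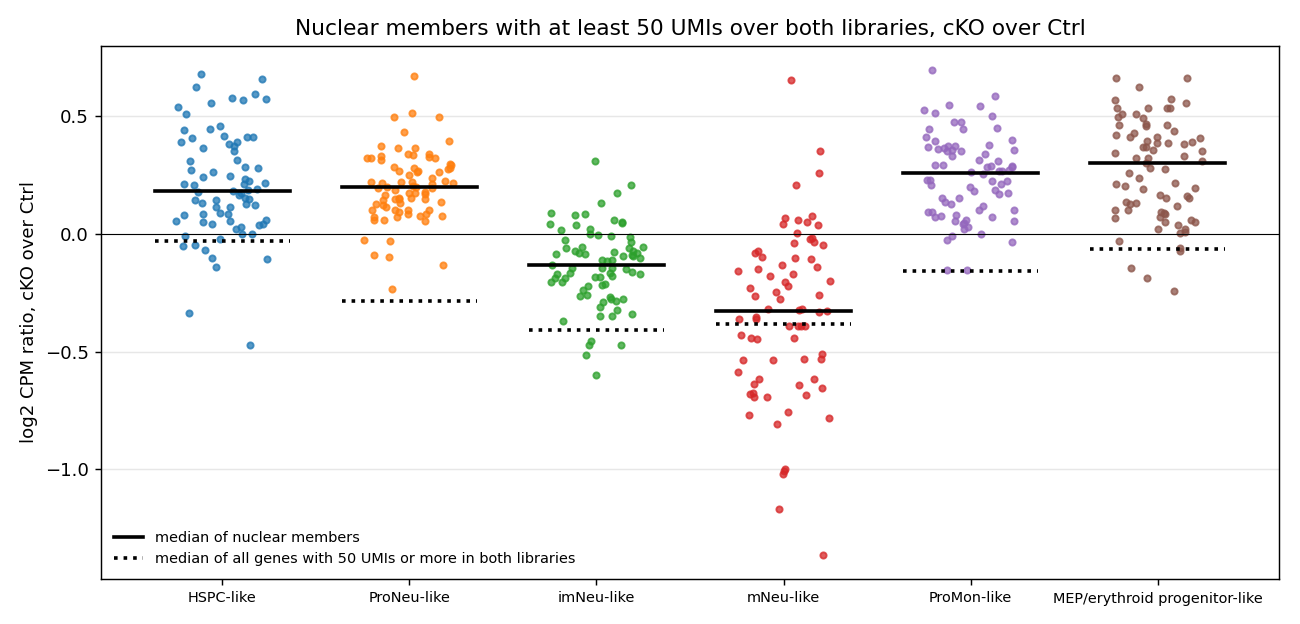
Log2 CPM ratio of cKO over Ctrl for each nuclear member with at least 50 UMIs over both libraries, in 6 gates. The solid line is the median of the nuclear members (0.18, 0.20, -0.13, -0.33, 0.26 and 0.30 from left to right) and the dotted line the median of all genes with at least 50 UMIs in both libraries, which lies below it in every gate.

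Members were ranked between the libraries only with at least 50 UMIs over both. In HSPC-like cells the highest nuclear members in cKO were *Ndufb9* (150.2 CPM in Ctrl and 240.7 CPM in cKO), *Ndufa11* (84.3 and 133.1) and *Ndufs7* (100.7 and 155.3), all subunits of complex I, at log2 ratios of 0.68, 0.66 and 0.63. Low members were *Ndufs1*, the large iron-sulphur subunit of complex I (61.5 and 44.4 CPM, -0.47), and *Sdha* (127.4 and 101.0 CPM, -0.34). In ProNeu-like cells *Cox4i2* (0.67, interval -0.06 to 1.42), *Cox7a1* (0.52, -0.31 to 1.36) and *Atp5g1* (0.50, 0.46 to 0.54) were highest, the first 2 with under 40 UMIs in a library. The lowest ranked there were *Sdha* (-0.23), *Ndufs1* (-0.13) and *Atp5a1* (-0.10), which encodes the alpha subunit of ATP synthase. *Cox6a2*, with 25 UMIs in Ctrl and 7 in cKO, was below the minimum and stood lower (-1.59).

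In imNeu-like cells *Ndufa5* (51.4 CPM in Ctrl and 34.0 CPM in cKO, -0.60), *Sdha* (-0.52) and *Ndufc1* (-0.47) were the lowest ranked, and *Cox7a2l* (0.31), *Ndufb9* (0.21) and *Ndufs4* (0.17) the highest ranked. Below the minimum of UMIs, *Cox6a2* (29 and 4 UMIs) stood at -3.24 and *Cox7a1* (10 and 19 UMIs) at 0.55. In mNeu-like cells the lowest ranked were *Ndufa5* (15.5 CPM and 6.02 CPM, -1.36, interval -2.09 to -0.65), *Ndufc1* (39.3 and 17.5 CPM, -1.17) and *Ndufa12* (20.2 and 9.96 CPM, -1.02). *Atp5g1* (39.7 and 19.7 CPM) and *Atp5g2* (70.3 and 35.2 CPM) were close to these. *Cox6b2* was lower still (28 UMIs in Ctrl and 9 in cKO, -2.72, interval -3.98 to -1.59) but had too few UMIs to be ranked. The highest was *Sdhb*, the iron-sulphur subunit of complex II, at 54.0 CPM in Ctrl (136 UMIs) and 84.96 CPM in cKO (452 UMIs), which is 0.65 on the log2 scale (0.37 to 0.94), followed by *Ndufa8* (0.35) and *Ndufb11* (0.26). *Sdha* and *Sdhb*, the paired catalytic subunits of complex II, therefore stood at -0.68 and 0.65 in mNeu-like cells.

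Other mitochondrial gene lists were set beside the nuclear members. Their median log2 ratios of cKO over Ctrl in HSPC-like and mNeu-like cells were 0.16 and -0.54 for mitochondrial ribosome proteins (78 and 75 genes), 0.13 and -0.61 for assembly factors (49 and 41), 0.16 and -0.55 for mitochondrial mass and TCA cycle genes (18 and 18), 0.04 and -0.63 for mitochondrial DNA maintenance and transcription (21 and 14) and -0.26 and -0.79 for nuclear regulators (8 and 7). The nuclear members stood at 0.18 and -0.33 and all genes at -0.09 and -0.51. In mNeu-like cells 36 of 75 mitochondrial ribosome genes, 22 of 41 assembly factors, 8 of 18 mass and TCA genes, 7 of 14 maintenance genes (*Tfam*, the mitochondrial DNA packaging factor, among them) and 5 of 7 regulators were at least 1.5-fold lower in cKO, beside 45% of all genes. In HSPC-like cells the same lists had 0 of 78, 7 of 49, 0 of 18, 4 of 21 and 1 of 8 lower, beside 17.2% of all genes, and 5, 7, 2, 2 and 0 higher, beside 9.42%.

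The 13 mitochondrial members did not move as a block. *mt-Co1*, *mt-Co2*, *mt-Co3* and *mt-Atp6*, which hold most of the mitochondrial UMIs, stayed within a log2 ratio of -0.40 to -0.07 in the 4 gates outside imNeu-like and mNeu-like cells. In HSPC-like cells *mt-Co1*, the catalytic subunit of complex IV, had 4126 CPM in Ctrl and 3744 CPM in cKO (-0.14), *mt-Co2* 4168 and 3731 CPM (-0.16), *mt-Co3* 5182 and 4920 CPM (-0.07), *mt-Atp6* 4288 and 3924 CPM (-0.13) and *mt-Cytb*, the complex III subunit, 2396 and 2359 CPM (-0.02). *mt-Nd1* had 1514 and 1236 CPM (-0.29), *mt-Nd4* 1315 and 1175 CPM (-0.16), *mt-Nd2* 846.4 and 606.8 CPM (-0.48) and *mt-Nd3* 318.0 and 328.4 CPM (0.05), all of complex I. By CPM, 11 of the 13 were lower in cKO in all 6 gates, beside 35.2% of all genes measured in all 6 gates. Under the median scaling it was 5, beside 18.3% of all genes, and 8 of 13 were higher in ProNeu-like cells. By CPM *mt-Nd3* was higher in HSPC-like and MEP/erythroid progenitor-like cells, and *mt-Co1* was level in mNeu-like cells.

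*mt-Nd4l*, *mt-Atp8*, *mt-Nd6* and *mt-Nd5* were lowest against Ctrl. *mt-Nd4l*, a complex I subunit of the pair shown above, had 109.3 CPM in Ctrl and 33.3 CPM in cKO HSPC-like cells, 120.3 and 28.4 in ProNeu-like, 28.6 and 7.06 in imNeu-like, 31.8 and 3.38 in mNeu-like, 71.9 and 19.1 in ProMon-like and 118.9 and 37.4 CPM in MEP/erythroid progenitor-like cells. Its log2 ratio lay between -3.23 and -1.67 in the 6 gates, with every interval below -1. *mt-Atp8*, the small subunit of ATP synthase, lay between -2.40 and -1.17, from 47.3 against 21.1 CPM in HSPC-like to 17.9 against 3.38 CPM in mNeu-like cells. *mt-Nd6*, the only member on the other strand of the mitochondrial genome, lay between -2.08 and -0.84 and had 14 UMIs in Ctrl and 7 in cKO mNeu-like cells. *mt-Nd5* lay between -1.10 and -0.47.

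These 4 members were at least 1.5-fold lower in cKO in 6, 6, 6 and 5 of the 6 gates, the exception being *mt-Nd5* in mNeu-like cells (-0.47). No other mitochondrial member passed that fold in HSPC-like, ProNeu-like, ProMon-like or MEP/erythroid progenitor-like cells. That is 4 of 13 in each (30.8%), beside 17.2%, 25.2%, 24.6% and 22.2% of all genes in the same order. The downstream partners *mt-Atp6* and *mt-Nd4* differed from *mt-Atp8* and *mt-Nd4l* by over 1 log2 unit in all 6 gates. Each pair is read from a shared bicistronic mRNA whose 3′ end lies in the downstream gene. In a 3′ library the UMIs of the upstream gene therefore need not follow the amount of that mRNA, and how they arise was not tested. *mt-Nd4l* made up 0.445% of the mitochondrial UMIs in Ctrl and 0.150% in cKO HSPC-like cells, and *mt-Nd4* 5.35% and 5.29%.

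**Figure D5:**
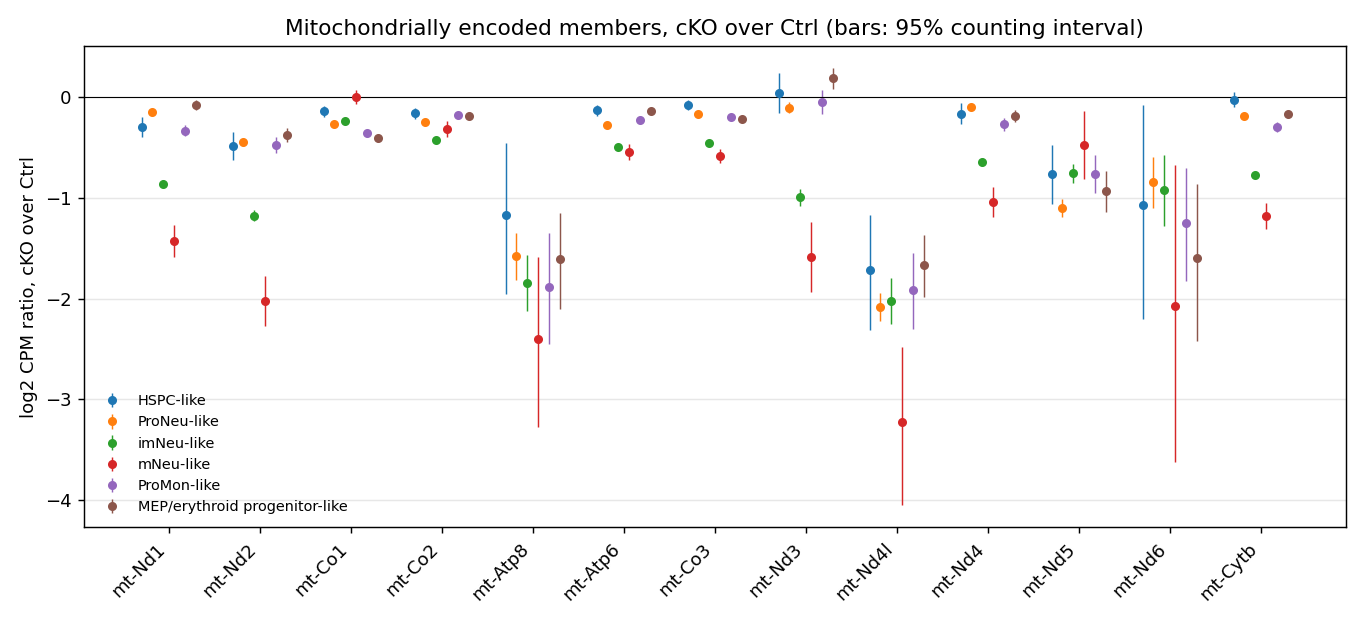
Log2 CPM ratio of cKO over Ctrl for the 13 mitochondrial members in genome order, with 1 point for each of 6 gates and bars for the 95% counting interval. *mt-Atp8* and *mt-Nd4l* lie below -1 in all 6 gates, and *mt-Co1* ranges from -0.40 to 0.00.

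In imNeu-like and mNeu-like cells further members separated. By CPM, 9 and 8 of the 13 were at least 1.5-fold lower in cKO, against the 41.2% and 45% of all genes given above. Under the median scaling it was 3 and 8, against 18.6% and 26.0% of all genes. In mNeu-like cells *mt-Co1* had 1014 CPM in Ctrl (2555 UMIs) and 1017 CPM in cKO (5412 UMIs), a log2 ratio of 0.00 with an interval of -0.06 to 0.07, while *mt-Nd2* had 158.4 and 38.9 CPM (-2.03, interval -2.27 to -1.78), *mt-Nd3* 67.9 and 22.6 CPM (-1.59), *mt-Nd1* 289.3 and 107.3 CPM (-1.43) and *mt-Cytb* 416.0 and 183.5 CPM (-1.18). *mt-Co1* thereby rose from 19.5% to 28.2% of the mitochondrial UMIs of mNeu-like cells and from 17.7% to 21.1% of those of imNeu-like cells, while *mt-Nd2* went from 3.05% to 1.08% and from 2.503% to 1.56%. In HSPC-like cells the share of *mt-Co1* was 16.8% in both libraries.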

How the data were processed

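The authors deposited raw counts, the UMI counts per gene and barcode (already called as cells) of 1 droplet-based 3′ library per genotype, made with Cell Ranger 5.0.0 on mm10 (GRCm38) per the labels and the study's methods. The annotation release is not given in the sources used here. Reads that fit several genes enter no count, which lowers overlapping members. The authors removed doublets in their own analysis. The deposited matrices were not limited to the cells of that analysis, and no doublet caller was run here.

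Barcodes were kept from 200 to 9000 genes, with a ceiling of 30% mitochondrial UMIs. Since the 13 mitochondrial members are all the mitochondrial genes listed, this ceiling acts on members, and it removed 247 Ctrl and 130 cKO barcodes. Cells with at least 1000 UMIs were gated by 16 marker lists (score at least 0.20, margin at least 0.05, at least 3 markers detected), and no member is a marker. Counts were summed per gate and library and divided by the total to give CPM. Genes with at least 10 UMIs over both sides were compared, at least 1.5-fold between libraries and at least 2-fold between gates, in gates of at least 50 cells in both libraries, and levels were given for gates of at least 10 cells in both. With 1 library per genotype no test was run, so no p-value is given. The 95% intervals are exact (Clopper-Pearson, or binomial for ratios) and cover counting error only. Other denominators, ceilings, UMI ranges, gates, per-cell means and a median-of-ratios scaling were tried as alternatives, and depth bands and the split of imNeu-like cells by cycling were added after seeing the data.

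Genes named were all mitochondrial members, the 3 members with most UMIs per complex, paralogous isoforms, the 3 highest and lowest members from HSPC-like to mNeu-like cells and between libraries in the 4 gates from HSPC-like to mNeu-like cells (with at least 50 UMIs), and members whose highest gate was at least 3 times the median gate. One item that this rule selects is not reported here. The members and lists were chosen with earlier results of these data known. Python 3.11.15, numpy 2.4.6, scipy 1.17.1, pandas 2.3.3 and matplotlib 3.10.9 were used, and the counting steps were tested on simulated data.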

Additional observations from a re-analysis of the deposited data

Results flagged for a closer look

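The summed nuclear members went opposite ways between gates by CPM. The log2 ratio of cKO over Ctrl was 0.21 in HSPC-like, 0.20 in ProNeu-like, 0.24 in ProMon-like and 0.27 in MEP/erythroid progenitor-like cells, whereas it was -0.11 for imNeu-like and -0.25 for mNeu-like cells. With 1 library per genotype the difference between gates was not tested. Under the median-of-ratios scaling the values in imNeu-like and mNeu-like cells became 0.29 and 0.14, so the opposite direction holds for CPM and not for that scaling. In imNeu-like cells it was seen by CPM in the cells below the cycling limit (1.02% in Ctrl and 0.897% in cKO) and not in those at or above it (1.39% and 1.42%). By depth, the nuclear share of imNeu-like cells was lower in cKO from 4000 UMIs but higher at 1000 to 4000 UMIs.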

How the results depend on the processing

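No paired analysis was possible because each genotype has 1 library, and for the same reason no replicate could be left out. The log2 sums of mNeu-like over HSPC-like cells were -0.93 in Ctrl and -1.39 in cKO for nuclear and -2.24 and -2.62 for mitochondrial members, the medians over the 6 gates of cKO over Ctrl were 0.21 nuclear and -0.24 mitochondrial, and 22 nuclear members passed 1.5-fold in mNeu-like cells. No alternative turned the direction of these sums and medians. Without the 50 most abundant genes in the total, the 4 stage values were -0.57, -0.88, -1.88 and -2.11 and the count 11. Without mitochondrial genes in the total, the nuclear values were -0.96 and -1.42 and the mitochondrial Ctrl value -2.27. With no mitochondrial ceiling the mitochondrial median was -0.26, and with a ceiling of 10% it was -0.23, with mitochondrial stage values of -2.48 and -2.68. With a floor of 2000 UMIs the nuclear Ctrl value was -0.9998, the mitochondrial median -0.23 and the count 14. In cells of 2000 to 8000 UMIs, where the MEP/erythroid progenitor-like gate is lost, the stage values were -0.85, -1.11, -2.40 and -2.95, the medians 0.10 and -0.060 and the count 10. With a stricter gate the stage values were -0.89, -1.24, -2.32 and -2.77 and the nuclear median 0.16. As means of per-cell shares the stage values were -0.82, -1.26, -2.36 and -2.70 and the medians 0.16 and -0.33. Without the member with most UMIs, the mitochondrial cKO value was -2.59 and the mitochondrial median -0.26. Under the median-of-ratios scaling the medians were 0.32 and -0.11 and the count 10. The causes of these shifts were not tested. By single gate, the log2 change of the nuclear to mitochondrial ratio was above 0 in 59 of 59 values under these alternatives (0.0035 to 0.57), with the smallest in HSPC-like cells of 2000 to 8000 UMIs, and above 0 in 14 of 18 depth bands. The 59 values include the other denominators and the median-of-ratios scaling. These cancel in the ratio and return its main value, so they are no check of it. Members with few UMIs, such as *mt-Nd6* and *Cox6b2* in mNeu-like cells, are limited by depth.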

Other observations

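Barcodes over the mitochondrial ceiling, which enter no comparison, had a median of 769 UMIs in Ctrl (247 barcodes) and 779 UMIs in cKO (130 barcodes). Mitochondrial members were 56.7% of their UMIs in Ctrl and 61.8% in cKO, and nuclear members 0.691% and 0.626%.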
